A study of Homo sapiens with 18 samples.

Results

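Long non-coding RNA genes other than the small nucleolar RNA (snoRNA) host genes carried a small part of the RNA peaks of FLAG-tagged MYC, and most wild-type peaks placed in them lay on the strand of an overlapping protein-coding gene. A gene was counted here if RefSeq classes it as lncRNA or antisense_RNA, if it is not GAS5 or an SNHG gene, and if it was the shortest annotated gene at the summit of a deposited peak. By this rule there were 68 genes among the 1466 host genes of all 3 peak lists. They held 2 of the 103 peaks of the 3A mutant, 10 of the 88 peaks of the 7A mutant and 67 of the 2149 peaks of wild-type MYC. The genes were chosen by the positions of the summits, so these numbers describe the choice and support nothing.

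The peaks come from eCLIP, in which RNA is crosslinked to protein by ultraviolet light, precipitated with an antibody and sequenced. U2OS, a line from a human osteosarcoma, was used with its endogenous MYC knocked out and a FLAG-tagged MYC that doxycycline induces, a state that all groups share. Groups were MYC-3A, MYC-7A and MYC-WT, each after 24 h with 1 µg/mL doxycycline or with PBS. Each had 2 FLAG immunoprecipitates and 1 input, which gives 18 libraries in 12 groups. The labels do not say which residues 3A and 7A change, or whether each line is a single clone. Peaks were given for doxycycline-treated cells, as 1 list for each allele, and cells without doxycycline were not analysed here. A single list holds no spread between replicates, so no test was made and all values describe these lists. The depth behind them is unknown, and the files hold peaks only, so the identity of the cells could not be set against marker genes.

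Long non-coding RNAs are transcripts of RNA polymerase II that encode no protein, and many are kept in the nucleus. A large class is made from the strand opposite to a protein-coding gene, either overlapping its first part (antisense, names ending in -AS or OS) or starting upstream and running away from it (divergent, names ending in -DT). MYC, a transcription factor, binds DNA at the promoters where such gene pairs begin, through the E-box CACGTG. Because a coding gene and its antisense gene share sequence but not strand, the strand of a peak tells which of their RNAs it can come from. The names of the 68 genes reflect these classes: 25 end in -AS with or without a number, or in OS, 3 in -DT, 28 have only a LOC number, 4 begin with LINC and 8 have other names.

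Among all 59716 placed genes, 0.127% were the host of a 3A summit, 0.102% of a 7A summit and 2.39% of a wild-type summit. Among the 18292 long non-coding genes that meet the rule on type and name, 2 genes (0.0109%) were hosts for 3A, 8 (0.0437%) for 7A and 58 (0.317%) for wild type. No gene was a host in more than 1 list. Host genes of any kind numbered 76 for 3A, 61 for 7A and 1426 for wild type. Over the 3 lists together they numbered 1466, so some of them recurred, and the difference was not tested. The 58 wild-type genes fall into 13 with a summit in no protein-coding gene (19 peaks) and 46 with a summit that a protein-coding gene also holds (48 peaks), and LOC124904025 has a peak of each kind. Outside the 68 genes, 94% of the 2054 wild-type summits in a gene lay in a protein-coding gene. Members had a median annotated length of 11806 bp, against 9052 bp for all 18292 genes.

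Sequence at pairs of a long non-coding and a coding gene comes from promoter windows of RefSeq (GRCh38.p14, 250 bases before to 50 after an annotated start) that a wild-type peak runs into. The 6 printed here were chosen after the data had been seen. They are windows of a long non-coding gene or its coding neighbour with at least 90 bases inside the peak, where both genes have a listed strand, and the one with more bases where a gene has several. Each is written 5′ to 3′ on the strand of the peak, with the bases inside the peak in capitals and the rest of the window in lower case. In the first 5 the window belongs to the long non-coding gene and the printed strand is that of the coding gene, so each line reads as coding-strand sequence. In the last, the window is that of the coding gene PPP1R9B. The peak there lies upstream of the start of that window, with its summit in no coding gene, so it shows no overlap with PPP1R9B. Of its 136 bases, 93 are in the window, and 77.4% of these are G or C.
LOC105374114 against MRPL3, chr3:131502659-131502958: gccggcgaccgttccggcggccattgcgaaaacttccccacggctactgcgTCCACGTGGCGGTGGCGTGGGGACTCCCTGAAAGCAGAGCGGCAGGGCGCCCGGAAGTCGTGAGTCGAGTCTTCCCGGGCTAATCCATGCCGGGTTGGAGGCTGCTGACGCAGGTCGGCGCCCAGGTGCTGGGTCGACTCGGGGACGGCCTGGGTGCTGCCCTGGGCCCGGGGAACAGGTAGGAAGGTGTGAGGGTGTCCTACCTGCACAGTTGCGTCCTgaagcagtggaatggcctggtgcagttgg
EFHD2-AS1 against EFHD2, chr1:15409769-15410068: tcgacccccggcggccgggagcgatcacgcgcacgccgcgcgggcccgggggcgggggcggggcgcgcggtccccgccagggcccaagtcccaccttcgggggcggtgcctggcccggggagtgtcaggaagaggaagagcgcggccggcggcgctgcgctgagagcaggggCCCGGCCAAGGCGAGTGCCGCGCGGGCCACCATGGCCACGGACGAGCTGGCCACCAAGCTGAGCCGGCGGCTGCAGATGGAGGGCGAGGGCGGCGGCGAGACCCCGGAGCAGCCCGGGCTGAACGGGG
LOC105370497 against RTRAF, chr14:51989410-51989709: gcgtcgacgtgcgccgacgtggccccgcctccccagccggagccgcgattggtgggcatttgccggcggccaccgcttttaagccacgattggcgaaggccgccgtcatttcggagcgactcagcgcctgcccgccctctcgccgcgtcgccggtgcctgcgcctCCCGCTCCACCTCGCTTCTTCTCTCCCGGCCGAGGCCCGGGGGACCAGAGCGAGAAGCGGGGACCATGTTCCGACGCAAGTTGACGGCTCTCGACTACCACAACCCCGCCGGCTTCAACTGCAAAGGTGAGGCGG
LOC101929004 against PM20D2, chr6:89145953-89146252: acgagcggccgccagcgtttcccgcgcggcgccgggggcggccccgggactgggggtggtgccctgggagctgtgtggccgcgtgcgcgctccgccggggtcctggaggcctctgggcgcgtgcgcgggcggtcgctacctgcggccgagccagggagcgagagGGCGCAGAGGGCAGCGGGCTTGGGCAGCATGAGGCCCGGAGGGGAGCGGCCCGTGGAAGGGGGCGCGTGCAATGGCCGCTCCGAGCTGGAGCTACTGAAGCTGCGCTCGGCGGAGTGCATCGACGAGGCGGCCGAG
PCOTH against MIPEP, chr13:23889216-23889515: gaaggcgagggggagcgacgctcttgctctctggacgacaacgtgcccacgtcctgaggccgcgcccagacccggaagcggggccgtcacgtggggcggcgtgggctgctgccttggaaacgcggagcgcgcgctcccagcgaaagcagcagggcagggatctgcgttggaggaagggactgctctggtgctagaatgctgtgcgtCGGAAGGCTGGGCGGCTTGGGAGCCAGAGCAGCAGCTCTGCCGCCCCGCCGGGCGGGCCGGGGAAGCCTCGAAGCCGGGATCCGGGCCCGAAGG
LOC124904025 against PPP1R9B, chr17:50150628-50150927: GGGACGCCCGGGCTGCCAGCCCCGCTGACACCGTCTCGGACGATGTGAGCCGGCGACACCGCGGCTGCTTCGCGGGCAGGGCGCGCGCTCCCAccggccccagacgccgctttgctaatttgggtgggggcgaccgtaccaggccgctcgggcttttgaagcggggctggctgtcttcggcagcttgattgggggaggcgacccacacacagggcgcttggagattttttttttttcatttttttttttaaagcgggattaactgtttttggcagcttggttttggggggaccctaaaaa

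The peak at MRPL3, which encodes a protein of the mitochondrial ribosome, lies whole inside its window, with 220 of 220 bases. At EFHD2, 128 of 219 bases of the peak are in the window (fold enrichment 4.56, summit 186 bp from the start). At RTRAF, a gene for an RNA-binding protein, 135 of 162 bases of the peak are in the window. At PM20D2 the number is 136 of 236 and at MIPEP, a gene for a mitochondrial peptidase, 94 of 118. The capitals are 68.2% G or C at MRPL3, 77.3% at EFHD2, 66.7% at RTRAF, 73.5% at PM20D2 and 77.7% at MIPEP. The E-box CACGTG, a palindrome and thus the same on both strands, is in the printed windows of LOC105374114 and PCOTH. In the LOC105374114 window it lies at the 5′ end of the capitals, and in the PCOTH window upstream of them. MRPL3's own promoter window does not hold it.

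The strand of the peak was set against the strand of the host gene, which the rule did not use. RefSeq's promoter table lists a strand for 51 of the 68 genes. Of the 53 wild-type peaks in such genes, 43 (81.1%) lay on the strand opposite to the long non-coding gene and 10 on its own strand. Among wild-type peaks hosted by protein-coding genes of listed strand, 1.16% of 1550 lay on the opposite strand, and in the SNHG genes and GAS5 it was 0 of 12, which allows a share of up to 25.0%. The 43 peaks opposite to their gene belong to 39 genes, and the 10 on the gene's strand belong to 7.

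**Figure D1:**
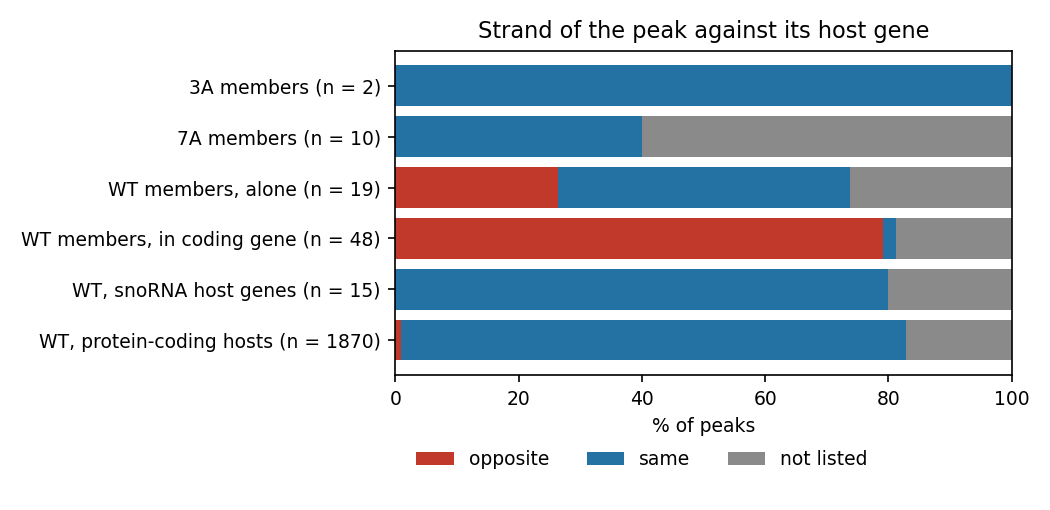
Share of peaks (%) on the opposite strand of their host gene (red), on its strand (blue), or in a host whose strand is not listed (grey), for the long non-coding genes by list and placement and for 2 other kinds of host in the wild-type list. Red fills most of the bar of wild-type peaks that also lie in a coding gene, 38 of 48, and is absent or thin for both mutants, snoRNA host genes and protein-coding hosts.

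Where a coding gene shared the summit, the peak followed the coding gene. Of the 39 such wild-type peaks whose long non-coding gene has a listed strand, 38 were opposite to it. Of the 37 whose coding gene has a listed strand, 35 were on the strand of the coding gene and 2 were not. Both strands were listed and the peak was opposite to the long non-coding gene and along the coding gene for 32 peaks. For the other 6 opposite peaks the strand of the coding gene is not listed. The annotation is itself lopsided: of 3868 long non-coding genes that overlap a coding gene, with both strands listed, 87.7% lie on the opposite strand.

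Many of these summits sat just inside the start of the coding gene. Within 500 bp of a protein-coding start on their own strand lay 35 of the 48 summits (72.9%) and 1 of the 19 wild-type summits outside coding genes (5.26%), against 44.4% of all 2149 wild-type summits. All 35 were downstream of the start, by 43 to 330 bp with a median of 137 bp, and 32 of them by 80 to 300 bp. Of all 955 wild-type summits in that range, 98.0% were downstream, with a median of 129 bp. The 48 were taken because their summit lies in a coding gene, so the downstream side and the gap to the 19 others follow largely from that split. Each summit also lies in a shorter long non-coding gene, and antisense genes overlap the first part of a coding gene. The gap to 44.4% thus also describes the choice and supports nothing. For wild-type peaks with a protein-coding host the share was 48.8%. For 6 of the 35 the coding strand is not listed and the start was set along the strand of the peak. Where it is listed, 29 of 37 summits were within 500 bp.

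**Figure D2:**
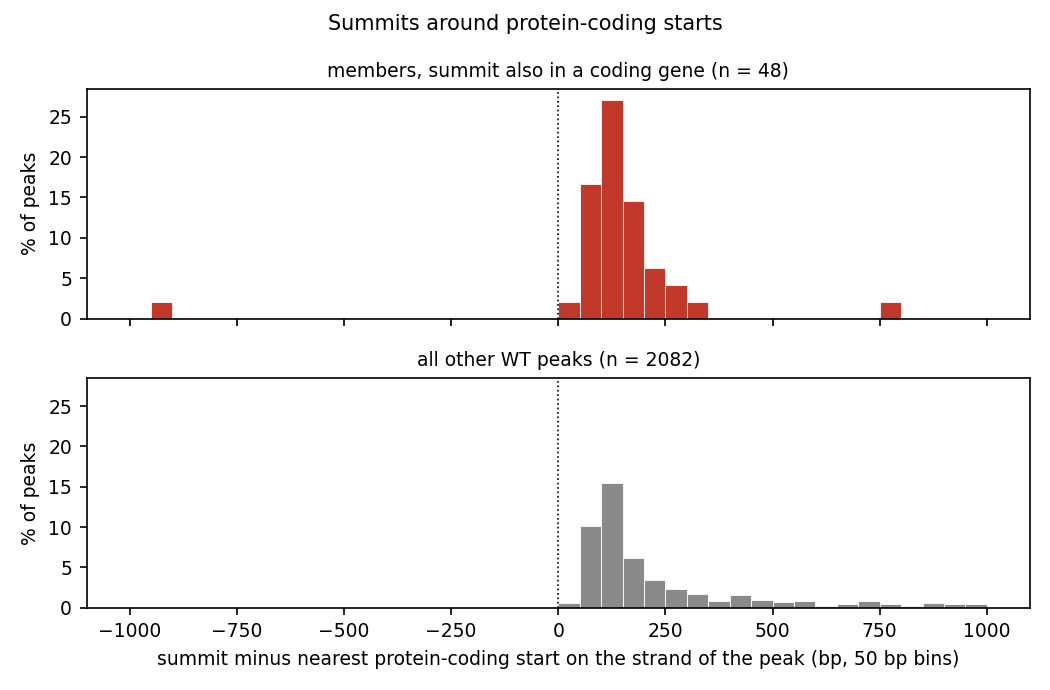
Distance of wild-type summits from the nearest protein-coding start on the strand of the peak (bp, 50 bp bins, downstream to the right), as % of the 48 member peaks that also lie in a coding gene (top) and of the 2082 other wild-type peaks (bottom). Both rise just downstream of 0, where 35 of the 48 member summits lie between 43 and 330 bp.

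**Figure D3:**
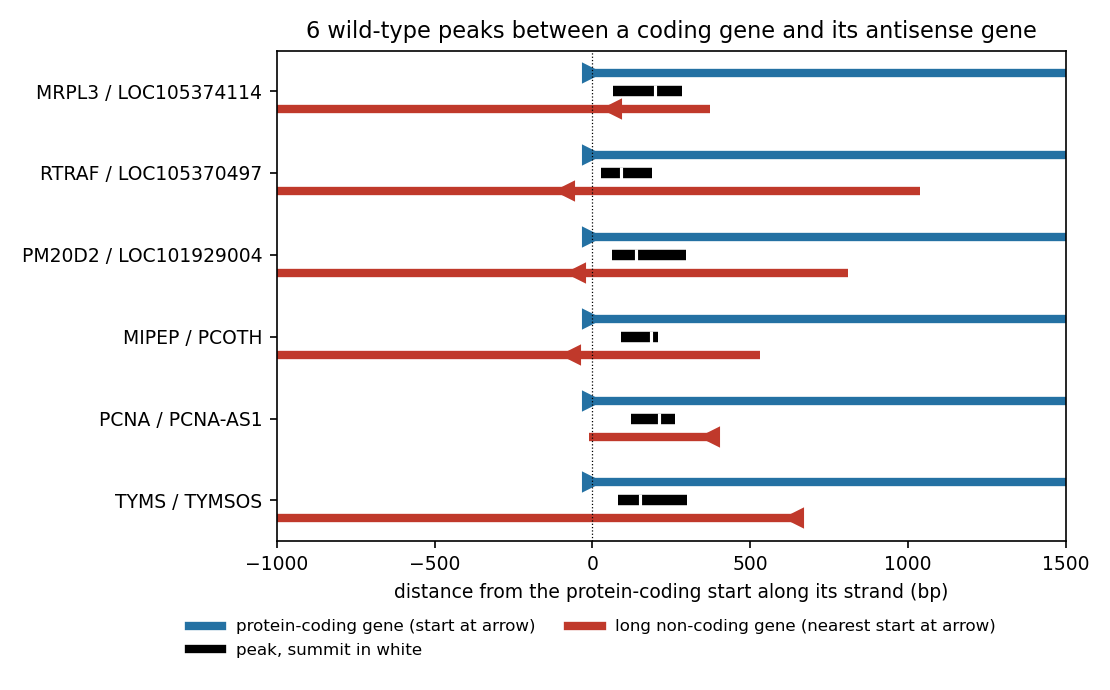
Positions in 6 gene pairs around the start of the protein-coding gene (bp along its strand), with the coding gene in blue, the wild-type peak in black with its summit in white, and the long non-coding gene in red, arrows marking annotated starts. In each pair the summit lies 90 to 210 bp inside the coding gene.

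Among these overlaps, KCNQ5-DT shared its summit with the potassium channel gene KCNQ5 (fold enrichment 20.4, 290 bp from the KCNQ5 start). The fold enrichment is the authors' value per peak over a background that the sources used here do not name. LOC107985423 lies at SRXN1, which encodes the antioxidant enzyme sulfiredoxin (17.9, 115 bp). SOD1-DT lies at the superoxide dismutase gene SOD1 (14.2, 96 bp), and its −log10 q of 86.1 was the highest among the wild-type members. All 3 peaks run along the coding gene where its strand is listed, and none of the 3 long non-coding genes has a listed strand.

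Of the other pairs with high fold enrichment, GOLGA4-AS1 lies at the Golgi protein gene GOLGA4 (14.5, 99 bp from the start) and LOC124906227 at STAC (14.3, 57 bp). LOC124905356 lies at GET4, a gene of tail-anchored protein insertion (13.1, 157 bp). ADPGK-AS1 lies at ADPGK, the ADP-dependent glucokinase gene (12.5, 229 bp), and UBE2E1-AS1 at the ubiquitin-conjugating enzyme gene UBE2E1 (11.4, 86 bp). PDZRN3-AS1 lies at the ubiquitin ligase gene PDZRN3 (11.2, 137 bp), PCOTH at MIPEP (10.7, 185 bp) and EML4-AS1 at the microtubule-binding protein gene EML4 (10.6, 101 bp). The shortest member, PCNA-AS1 with 384 bp, lies inside PCNA, the sliding clamp of DNA replication (11.4, 210 bp from the PCNA start, on chromosome 20 from 5119695 to 5119834). Every one of these peaks whose coding gene has a listed strand lay on that strand.

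CCND2-AS1 was the only long non-coding gene with 3 wild-type peaks inside a coding gene. It overlaps CCND2, which encodes the G1 cyclin D2, on chromosome 12. The peaks had fold enrichments of 4.64 (4273825 to 4273964), 6.96 (4274035 to 4274217) and 15.9 (4276068 to 4276234), so the highest lay farthest from the CCND2 start, at 2370 bp against 137 and 330 bp. All 3 were opposite to CCND2-AS1, and CCND2 held 4 further wild-type peaks on the same strand, outside the long non-coding genes. In the whole set, 13 of the 48 peaks had a coding gene with at least 1 further wild-type peak on that strand, 4 being the most, and 35 had none. The coding genes of the 48 peaks held 0 mutant peaks on the strand of the peak. Protein-coding hosts in the whole lists numbered only 66 for 3A and 49 for 7A, against 1207 for wild type. Neither count was set against other coding genes, so neither sets these genes apart.

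A group of 28 further long non-coding genes with 1 wild-type peak each inside a coding gene had fold enrichments of 2.56 to 9.70 with a median of 6.58. Of these peaks 27 were opposite to the long non-coding gene and 1 was in a gene with no listed strand. Their coding genes include TYMS, the thymidylate synthase gene (TYMSOS, 6.96, 150 bp from the start), HSPA9, the mitochondrial HSP70 gene (LOC105379193, 7.21, 120 bp) and CHD4, a chromatin remodeller gene (LOC124902867, 4.59, 97 bp). They also include YWHAH, a 14-3-3 gene (YWHAH-AS1, 8.73, 217 bp), ACTR3, an actin-nucleation gene (ACTR3-AS1, 8.89, 145 bp) and MRPL3 (LOC105374114, 2.56, 197 bp), the lowest fold enrichment of the set. These were named after their values had been seen. Within 500 bp of a coding start lay 21 of the 28.

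Among all 48 peaks, 13 summits were farther than 500 bp from a coding start. In the gene bodies, LOC124904000 lay in the proteasome subunit gene PSMD3 (6.43, 9029 bp) and PPP5C-AS1 in the phosphatase gene PPP5C (6.08, 43497 bp). LOC105371131 lay in NPIPB5 (11.8, 30952 bp). LOC105373194 lay in UBA1, the gene of the ubiquitin-activating enzyme (4.48), and PRMT5-AS1 in the arginine methyltransferase gene PRMT5 (8.75), with no coding start within 1000 bp. Nearer to a start were LOC101929918 at CAPRIN1, a gene for an RNA-binding protein (4.92, 769 bp inside), and GACAT2 at MTCL1 (4.70, at -944 bp, the minus sign meaning upstream). All of those with a listed strand were opposite to the long non-coding gene. LOC124902038, on chromosome 8, lay in the exosome subunit gene EXOSC4 (14.2) and neither gene has a listed strand.

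Of the 37 peaks whose coding gene has a listed strand, those in EPB41L4A-AS1 and NALCN-AS1 ran against the coding gene. EPB41L4A-AS1, which carries SNORA13 in its span, ranked 45th in the wild-type list with 23.5 (chromosome 5, 112160877 to 112161100). It lay on the gene's own strand, 471 bp from its nearest listed start, and opposite to EPB41L4A. NALCN-AS1 ranked 96th with 19.7 (chromosome 13, 101053734 to 101053833). Its peak lay on the strand opposite to NALCN, a sodium leak channel gene, and the strand of NALCN-AS1 is not listed.

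Among the 19 wild-type peaks in no coding gene, 14 were in genes of listed strand, and 9 of these lay on the gene's strand. They belong to LINC00839, ZFAS1, PRMT5-DT, LINC00665, LOC101926974 and LOC442028. LINC00839, on chromosome 10, had 3 peaks with fold enrichments of 8.66, 5.09 and 8.93, at 227, 511 and 877 bp from its start. PRMT5-DT, which runs away from PRMT5 on chromosome 14, had 1 peak of 16.5 (22929775 to 22929880) at 222 bp from its start. LINC00665 had 1 of 6.21 at 129 bp. These 3 genes thus held their peaks within 1000 bp of their own start.

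ZFAS1 carries 3 snoRNA genes, SNORD12, SNORD12B and SNORD12C, and so is a snoRNA host gene by content though not by name. Its 2 wild-type peaks (chromosome 20, 49278700 to 49278900 and 49279334 to 49279439) reached 7.26 and 6.51 and lay 189 and 744 bp from its start. A snoRNA gene lies inside 3 of the 68 member genes (4.41%), ZFAS1, EPB41L4A-AS1 and ACTR3-AS1, against 0.656% of all 18292 long non-coding genes. The 15 wild-type peaks of the SNHG genes and GAS5 had a median fold enrichment of 10.0. LOC101926974 (6.22) and LOC442028 (8.87), both on chromosome 2, had their peaks farther inside, at 18594 and 54738 bp.

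The other 5 of the 14 ran against their gene although no coding gene holds the summit. LOC124901138 (chromosome 5, 173766779 to 173767034) had the highest value of all wild-type members, 25.4, the 30th of the list. The nearest coding start on the strand of that peak was that of CPEB4, with the summit at -121386 bp. LOC124907779 was the host of 1 peak of 11.3 on chromosome 2, from 65204983 to 65205292. A further wild-type peak opposite to LOC124907779 (10.9, 65205866 to 65205967) lay at VDAC2P5, a pseudogene inside its span that the host rule took instead. LOC105373177 had 2 peaks on chromosome X of 5.58 and 5.92. The second peak of LOC124904025, printed above with the PPP1R9B window, had 3.32 and its summit lay at -257 bp from the nearest start of PPP1R9B, on that gene's strand. The first, of 5.95, lay 1434 bp inside it.

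The remaining 5 peaks were in LINC01029, ZFHX4-AS1 and PVT1, for which no strand is listed. LINC01029 on chromosome 18 had 2 peaks of 18.7 and 11.8. PVT1, the long non-coding neighbour of MYC on chromosome 8, had 2 peaks of 4.92 and 4.24, from 127794586 to 127794817 and from 127890694 to 127891007. The first summit lay close to the lower end of the PVT1 span at 127794524. Neither position was a peak for a mutant. ZFHX4-AS1 had 1 peak of 8.77.

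By fold enrichment the wild-type members lay near the middle of their list. Their median was 8.13 (range 2.56 to 25.4), against 8.11 over all 2149 wild-type peaks, and the quartiles were 6.02 and 11.4 against 5.78 and 11.5. The 100 highest wild-type peaks included 4 of the 67 (5.97%), where the list as a whole has 4.65%. The 43 peaks opposite to their gene had a median of 6.96 and ranged from 2.56 to 25.4, and the 10 on the gene's strand had a median of 7.96 and ranged from 5.09 to 23.5. These 2 groups overlap over nearly all of their range. The other 14 peaks, in genes with no listed strand, ranged from 4.24 to 20.4. Without the 43 opposite peaks the median of the members was 10.3. The peaks left are the 10 on the gene's strand, with the median of 7.96, and the 14 with no listed strand. The value of 10.3 thus rests on the 14 and is not a contrast between strands. Median width was 169 bp in members and 165 bp over the list.

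**Figure D4:**
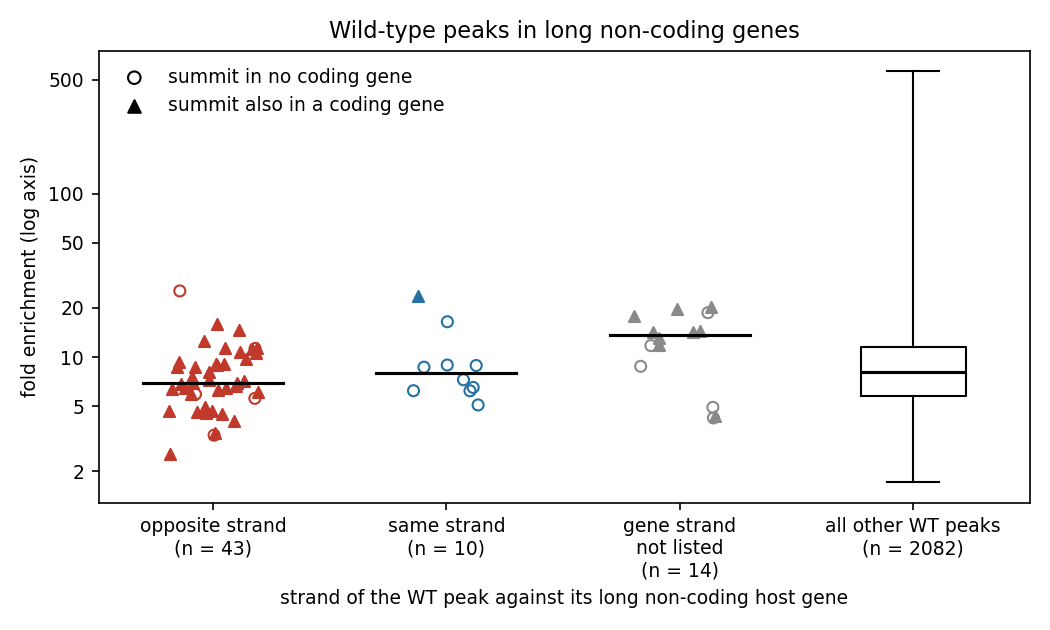
Fold enrichment (log axis) of the 67 wild-type peaks in long non-coding genes by strand against the gene, open circles for summits in no coding gene and triangles for those also in one, bars at the median, beside a box (quartiles, whiskers to the extremes) of the 2082 other wild-type peaks. The medians of 6.96 for the opposite and 7.96 for the same strand lie within the box. The 14 peaks in genes with no listed strand range from 4.24 to 20.4.

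None of the wild-type member peaks was met by a mutant peak on the same strand. The count was 0 of 67 for 3A and 0 of 67 for 7A, which allows a share of up to 4.48%, while 3.54% of all wild-type peaks were met by 3A and 1.4% by 7A. The limit lies above both shares, so a lower share in these genes was not detectable at this number of peaks. In the other direction 0 of 2 3A peaks and 0 of 10 7A peaks in the member genes met a wild-type peak, against 78.6% of all 3A peaks and 34.1% of all 7A peaks. Counts of 2 and 10 peaks bound these shares only loosely, and the difference was not tested. The host rule left out the long non-coding gene DANCR, whose 3A and wild-type peaks met. They ran from 52712694 to 52712812 and from 52712697 to 52712813 on chromosome 4, both on the strand of DANCR.

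The 3A mutant had its peaks in CYKILR and GJD3-AS1. CYKILR (chromosome 19, 36272093 to 36272197) reached 13.5, the 15th of 103, with a −log10 q of 68.2. GJD3-AS1, which overlaps the connexin gene GJD3 on chromosome 17, had a peak of 2.32 (98th of 103) at 319 bp from its start. Both lay on the strand of the long non-coding gene. The median over the 3A list was 5.54, so the 2 peaks lie on either side of it.

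The 7A mutant had 10 peaks in 8 long non-coding genes, 7 of them outside coding genes, with a median fold enrichment of 10.6 against 9.76 over its list. Of these, 4 peaks were in genes of listed strand, LOC124900480, LOC124902362 and PSLNR, and all 4 lay on the strand of the gene. LOC124900480 overlaps TAFA5, a gene for a secreted brain protein, on the same strand, so strand does not tell the RNAs of these genes apart. Its 2 peaks, from 48581150 to 48582224 and from 48585522 to 48587759, had fold enrichments of 24.5 and 23.5, the 4th and 5th of the list, and were 1075 and 2238 bp wide. The other 8 member peaks were 101 to 250 bp wide. LOC124902362 (9.67) lies in DIP2C on chromosome 10, again on the same strand as the coding gene.

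Several 7A peaks lay close together on chromosome 22. LINC00898 had 2 peaks, of 14.7 (47627965 to 47628084) and 14.1 (47628991 to 47629144). EPIC1, a long non-coding RNA reported to bind MYC protein, begins 104 bp beyond the annotated span of LINC00898 and had a peak of 10.7 from 47646992 to 47647143. With the peaks of LOC124900480, 5 of the 10 member peaks fell within 0.960 Mb, and 13 of the 88 7A peaks were on this chromosome. The wild-type list had 0 peaks in that interval. The interval was set by these 5 peaks, and no count was made for other intervals or for this chromosome in the other lists. These numbers therefore do not set the alleles apart. The strands of LINC00898 and EPIC1 are not listed, and their peaks lie on the minus and the plus strand.

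TALAM1 was the only one of the 68 genes of type antisense_RNA. It is the antisense partner of MALAT1, an abundant RNA of nuclear speckles, and its 7A peak (chromosome 11, 65503107 to 65503254) was the lowest of that list with 1.34, the 88th of 88. The peak lay on the plus strand, which is the listed strand of MALAT1. TALAM1 was the host only because its span is shorter than that of MALAT1, from 65497738 to 65506516. It was the sole peak of any list in MALAT1. The last 7A members were LOC124902538 on chromosome 10 (9.33), LOC124903628 on chromosome 16 (10.5) and PSLNR on chromosome 22 (6.62).

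**Figure D5:**
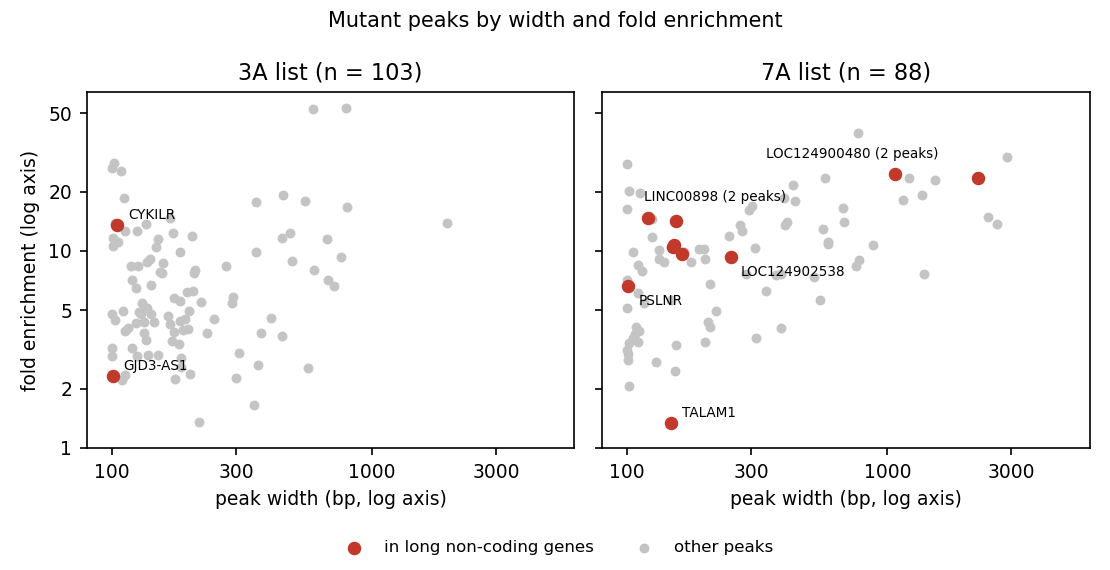
Fold enrichment against peak width (bp), both on log axes, for the 3A and 7A lists, with peaks in long non-coding genes in red. The 2 LOC124900480 peaks are high and are among the 10 7A peaks of at least 1000 bp. The TALAM1 peak, at 1.34, is the lowest of its list.

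Lists of well-known long non-coding RNAs were also searched, counting a summit anywhere in the gene. Of 26 matched genes in a list of nuclear or abundant long non-coding RNAs, 1 held a 3A summit (DANCR), 1 a 7A summit (MALAT1) and 3 a wild-type summit (DANCR, EPB41L4A-AS1 and ZFAS1), each on the gene's own strand. That is 3.85% for 3A, 3.85% for 7A and 11.5% for wild type, against 0.0164%, 0.0601% and 0.563% of all 18292 long non-coding genes in the same order of lists. NEAT1, TUG1 and NORAD were among those with none. The list was made of well-known genes, with earlier results of these data known. Its gap to all 18292 genes therefore describes the choice and supports nothing. The DANCR peaks of 3A (3.20) and wild type (3.34) met each other and lay at the microRNA gene MIR4449 inside it, which the host rule took instead. Of 10 genes in a list of long non-coding RNAs linked to MYC, 0 held a summit of a mutant and 1, PVT1, of wild type. EPIC1, which had the 7A peak given above, is not in that list. Of 16 genes in a list of microRNA hosts, 0 held a summit in any list.

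The E-box was searched as CACGTG on both strands. Of the 35 promoter windows of coding genes that lie along a wild-type member peak, 3 held CACGTG (8.57%), those of MIPEP, EML4 and HSPA9, against 8.34% of all 22199 windows of protein-coding genes. Their median GC content was 68.7%, against 62.3%. A match in a window is a description of its letters and not a binding site.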

How the data were processed

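Peak lists of doxycycline-treated FLAG immunoprecipitates were used, 1 per allele. The tools named per the submitters' processing notes are cutadapt, BWA and MACS2, and the build is hg38. Not given in the sources used here are their settings, the control and whether replicates were pooled. Each deposited peak has a fold enrichment (a ratio) and a q-value, which the authors gave as −log10. The deposited score restates the q-value, and the deposited offset gives the summit in bp from the peak's start.

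Coordinates were turned to 1-based positions. Hosts came from a RefSeq table of GRCh38.p14 with 59716 placed genes, which holds no exons or strands. Strands and starts were taken from RefSeq's promoter table (35116 windows of 27305 genes). For a coding gene without a listed strand, the end of its span that is first along the strand of the peak was its start. Peaks met if they shared at least 1 bp on a strand. Depth is unknown. The limit for a count of 0 is 3 counts. No test was made.

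The members and gene lists were chosen with earlier results of these data known. Text names every member outside coding genes, of a mutant list, with 2 peaks or in a known list, the 15 other members of highest fold enrichment, and examples said to be chosen later; 1 gene is counted but not reported here by name. Alternatives varied the host rule, peak threshold, overlap and start window. The assignment was tested on simulated peaks. Python 3.11.15, pandas 2.3.3, NumPy 2.4.6, SciPy 1.17.1 and Matplotlib 3.10.9 were used.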

Additional observations from a re-analysis of the deposited data

How the results depend on the processing

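Of 39 alternative values of 10 counts and medians, 28 stayed within 1.5 times the value given (for the median, within its 95% binomial interval of 6.67 to 9.01), and 11 did not. With protein-coding genes taken first, 20 genes were left, with 1 peak for 3A and 19 for wild type, of which 5 lay opposite to their gene; this removes by construction every summit shared with a coding gene. Keeping only peaks at or above their list's median fold enrichment left, also by construction, 37 genes with 1 peak for 3A, 6 for 7A and 34 for wild type, of which 25 shared a coding gene and 18 lay opposite. Without the peaks opposite to their gene, the wild-type median fold enrichment was 10.3, over peaks on the gene's strand and peaks in genes with no listed strand together. That setting, all settings of the strand count and the use of span ends as starts were chosen after seeing the data. No paired analysis was possible because the peaks of an allele come as a single list. Leaving out a replicate was likewise not possible. Genes with no listed strand, 17 of 68, limit the strand counts.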

Other observations

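Further long non-coding genes held a summit without being the shortest gene there. In the wild-type list 62 summits hosted by other genes lay in 46 such genes. Of these summits 30 were opposite to the long non-coding gene and 12 were on its strand, and the rest were in genes with no listed strand. Of the 12, 9 also lay in a coding gene, all in genes named as a joined gene pair, such as SENP3-EIF4A1, which joins SENP3 to the translation factor gene EIF4A1. The 3 others lay in DANCR at MIR4449 (3.34), in LINC03036 at LDHAP5, a pseudogene of lactate dehydrogenase (18.8), and in BDNF-AS at RPS25P1, a pseudogene of a ribosomal protein gene (9.89).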
